A study of Rattus norvegicus with 20 samples.

Results

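The microRNAs described here are rno-miR-126, rno-miR-126*, rno-miR-143 and rno-miR-145, which were taken by name from the 348 rat miRNAs that carried the same name on all 20 arrays. These 4 miRNAs were read on single-colour Agilent rat miRNA arrays in adult male Sprague-Dawley rats, in the soleus muscle and in the L4-L6 dorsal root ganglia (DRGs) of the operated limb. Each tissue had 1 array of a sham operation control, 3 arrays taken after 6 months of sciatic nerve denervation, 3 arrays taken after 6 months of sciatic nerve entrapment, and 3 arrays taken after 6 months of entrapment and 3 months of decompression. Denervation was a cut of the sciatic nerve with removal of a segment and ligation of the stump, entrapment was a non-constrictive silastic tube around the nerve, and decompression was the removal of that tube. The entrapment and decompression groups, whose nerves had carried the tube, are called the tube groups here. The time between the sham operation and tissue collection, and whether the sham array held RNA of 1 rat or of a pool, are not given in the sources used here.

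miRNAs are short RNAs that pair with messenger RNAs, mainly through a seed near their 5′ end, and lower the translation or the stability of these targets. miR-126 and miR-126* are the 2 strands of 1 hairpin and are known as the leading miRNAs of endothelial cells, where miR-126 supports growth factor signalling and vessel integrity. miR-143 and miR-145 come from neighbouring hairpins and are known from vascular smooth muscle, where they promote the contractile state, and both are also made by other mesenchymal cells.

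All 4 miRNAs were found in the RefSeq table of assembly GRCr8, and their mature sequences are shown because the strands of the miR-126 hairpin, and the neighbours miR-143 and miR-145, are set against each other in the results. They are written 5′ to 3′ with the seed, bases 2 to 8, in capitals.
rno-miR-126 (RefSeq rno-miR-126a-3p, chr3:29813219-29813240, plus strand): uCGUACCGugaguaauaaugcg
rno-miR-126* (RefSeq rno-miR-126a-5p, chr3:29813182-29813202, plus strand): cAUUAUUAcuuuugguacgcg
rno-miR-143 (RefSeq rno-miR-143-3p, chr18:57371373-57371394, minus strand): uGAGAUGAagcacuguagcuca
rno-miR-145 (RefSeq rno-miR-145-5p, chr18:57370033-57370055, minus strand): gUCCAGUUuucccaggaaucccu
The 4 seeds differ from each other, and none of them was shared with another of the 694 mature miRNAs in the table. The miR-126 strands lie inside the gene Egfl7, which encodes a protein secreted by endothelium. The miR-145 and miR-143 hairpins lie on the same strand with 1278 bases between them.

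Array quality and the tissue labels were examined first. In soleus, the sham array was the dimmest of the 10 by the 75th percentile of raw signal over the 108 miRNAs detected on all soleus arrays. It was 409 there, against 413 to 2539 on the others, and 134 to 194 of the 348 miRNAs were detected per array. In the DRGs the percentile was taken over all 348 miRNAs, so its values cannot be set beside those of soleus. It ran from 72.0 to 117, with 183 to 233 miRNAs detected. Over the 102 miRNAs detected on all 20 arrays, the percentile ran from 410 to 2593. The summed scaled signal of 5 skeletal muscle miRNAs, scaled within each tissue, was 56279 to 342043 in soleus and 252 to 401 in the DRGs. Of 6 neuronal miRNAs, all were detected on every DRG array and none passed the detection filter in soleus. Red blood cell and leukocyte miRNAs were detected in both tissues, which were taken whole. In the table of processed values, the 6 DRG columns named for entrapment and decompression matched the scanner files of the other group, so that these 2 group names in the DRGs rest on the scanner file labels, and exchanging them would exchange the values given below for these groups. Signals were scaled to each array's 75th percentile, which the text calls the scaled signal and gives where a miRNA is said to read a value, and differences between groups are on the log2 scale. A difference was called at a Benjamini-Hochberg adjusted p under 0.05 in a limma fit over all miRNAs tested in that tissue, which were 173 in soleus and 219 in the DRGs. All comparisons with sham in a tissue share its 1 sham array, which has no spread of its own and whose variance was taken from the injury groups.

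In soleus, both miR-126 strands were higher than sham after each nerve injury. The scaled signal of miR-126 was 359 on the sham array. It was 1041, 1025 and 1323 after denervation, 1009, 1485 and 1601 after entrapment, and 1337, 1653 and 1163 after decompression. All 9 injury arrays lay above the sham array, and the 3 injury groups overlapped one another. The mean rose 3.12-fold after denervation (log2 difference 1.64, SE 0.39, limma adjusted p = 0.0143, n = 3 against 1), 3.73-fold after entrapment (1.90, SE 0.39, limma adjusted p = 0.0085) and 3.81-fold after decompression (1.93, SE 0.39, limma adjusted p = 0.00584). In order of level, sham stood lowest, followed by denervation, entrapment and decompression, and the neighbours among the injury groups did not differ beyond their spread. The calls were lost in the processed values (differences 3.58, 4.09 and 2.65). Without scaling those after denervation and decompression were lost (differences 3.13 and 3.28, limma adjusted p = 0.0872 and 0.062), and with only the 2 groups fitted those after denervation and entrapment were (limma adjusted p = 0.101 and 0.0558).

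The star strand miR-126* was not detected on the soleus sham array, where its raw signal was 0.966 with a scanner error of 3.15. Its scaled signal was 103, 84.8 and 104 after denervation, 34.3, 55.0 and 55.5 after entrapment, and 51.1, 54.8 and 40.9 after decompression. It was detected on all 9 injury arrays, which included the array of denervation replicate 3, whose percentile of 413 was close to the 409 of the sham array and which gave a raw signal of 41.3. Against the dimmest signal that counted as detected on the sham array, miR-126* was at least 15.0-fold higher after denervation, at least 7.33-fold higher after entrapment and at least 7.55-fold higher after decompression. These bounds themselves were not tested. The limma fit took the sham signal at a floor of 2.71, which gave log2 differences of 5.16, 4.12 and 4.16 in the same order (limma adjusted p = 4.96e-05, 6.78e-05 and 6.22e-05). Denervation stood above both tube groups without overlap, and entrapment and decompression overlapped. In the processed values the call after decompression was lost (limma adjusted p = 0.154). In that table decompression replicate 2 had been divided by 1222 and the other soleus arrays by 38.7 to 100.

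The smooth muscle pair moved differently in soleus. miR-143 read 2565 on the sham array. It was 984, 1125 and 1457 after denervation, 1349, 1695 and 1785 after entrapment, and 2067, 2432 and 1600 after decompression. All 9 injury arrays lay below the sham array, and none of the differences passed the test: −1.13 (SE 0.38, limma adjusted p = 0.0592) after denervation, −0.68 (SE 0.38, limma adjusted p = 0.208) after entrapment and −0.36 (SE 0.38, limma adjusted p = 0.512) after decompression. The 95% intervals of these differences were −1.99 to −0.26, −1.55 to 0.18 and −1.22 to 0.51. The sign of the miR-143 values depended on the scaling: without scaling and in the processed values all 3 differences were above 0, and with the percentile over all miRNAs those after entrapment and decompression were.

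miR-145 read 108 on the soleus sham array. It was 53.8, 68.4 and 97.2 after denervation, 25.1, 29.9 and 32.1 after entrapment, and 39.5, 45.7 and 26.5 after decompression. The 9 injury arrays lay below the sham array, and all 6 entrapment and decompression arrays lay below all 4 sham and denervation arrays. The level was 3.73-fold lower than sham after entrapment (log2 difference −1.90, SE 0.44, limma adjusted p = 0.0127) and 2.97-fold lower after decompression (−1.57, SE 0.44, limma adjusted p = 0.0253). After denervation the difference was −0.60 (95% interval −1.60 to 0.39, limma adjusted p = 0.349). Both calls were lost without scaling, with a rank-consistent loess curve, with the percentile over all miRNAs and in the processed values, and that after decompression also with quantile normalization (limma adjusted p = 0.0634), with only the 2 groups fitted (limma adjusted p = 0.111) and without decompression replicate 1 or 3 (limma adjusted p at most 0.0594). In the processed values the difference from sham was above 0 after denervation (1.34) and entrapment (0.29).

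**Figure D1:**
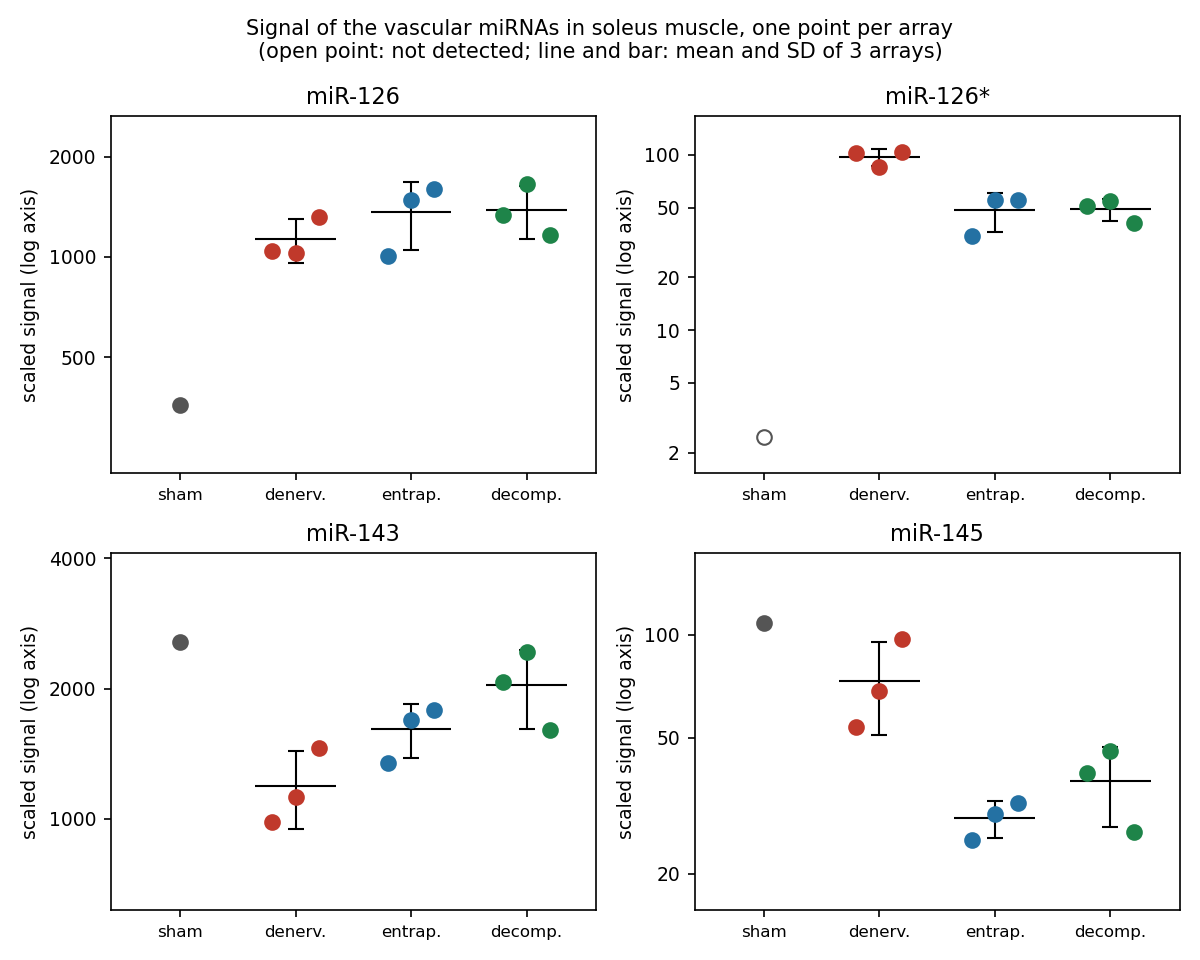
Scaled signal of the 4 miRNAs on each of the 10 soleus arrays, on log axes that differ between panels, with the mean and SD of the 3 arrays of each injury group and an open point where the miRNA was not detected. The sham array lies below all injury arrays for miR-126 and miR-126*, and above them for miR-143 and miR-145.

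Counted over the 4 miRNAs, 2 differed from sham after denervation in soleus, both higher, where 26.6% of all miRNAs tested were called and 11.6% were called higher. After entrapment 3 were called, 2 higher and 1 lower, beside 29.5% of all miRNAs tested, 9.83% called higher and 19.7% lower. After decompression 3 were called, again 2 higher and 1 lower, beside 31.8% of all, 9.83% higher and 22% lower. All 9 injury arrays lay above sham for 2 of the 4 miRNAs, against 16.8% of all tested, and below sham for the other 2, against 34.7%. By a 2-fold change from the sham array on each of the 3 arrays, 2 miRNAs passed after denervation (34.1% of all), 3 after entrapment (38.2%) and 3 after decompression (40.5%). The median difference of all miRNAs tested was −0.07 after denervation, −0.37 after entrapment and −0.25 after decompression.

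The arrays' scaling moved the median of all soleus miRNAs by more than any difference in miR-143. Over 7 scalings, including none and the processed values, that median ran from −0.07 to 1.82 after denervation, from −0.37 to 1.67 after entrapment and from −0.25 to 1.02 after decompression. Taken relative to the median under each scaling, miR-126 was higher by 1.64 to 1.81 after denervation, by 1.75 to 2.49 after entrapment and by 1.68 to 2.26 after decompression. For miR-126*, whose sham signal was below detection, no such value is given. On the same footing, miR-145 was −0.53 to −0.40, −1.53 to −1.25 and −1.32 to −1.06 in the 3 comparisons. miR-143 was −1.14 to −0.97 after denervation, −0.80 to −0.10 after entrapment and −0.65 to −0.03 after decompression. Most of these scalings divide an array by 1 constant, which nearly cancels once the median is subtracted, and only quantile normalization and the loess curve could have moved these relative values much. The share of higher miRNAs among all calls moved too, from 43.5% to at most 100% after denervation, from 33.3% to at most 71.4% after entrapment, and from 30.9% to between 20% and 63.6% after decompression.

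**Figure D2:**
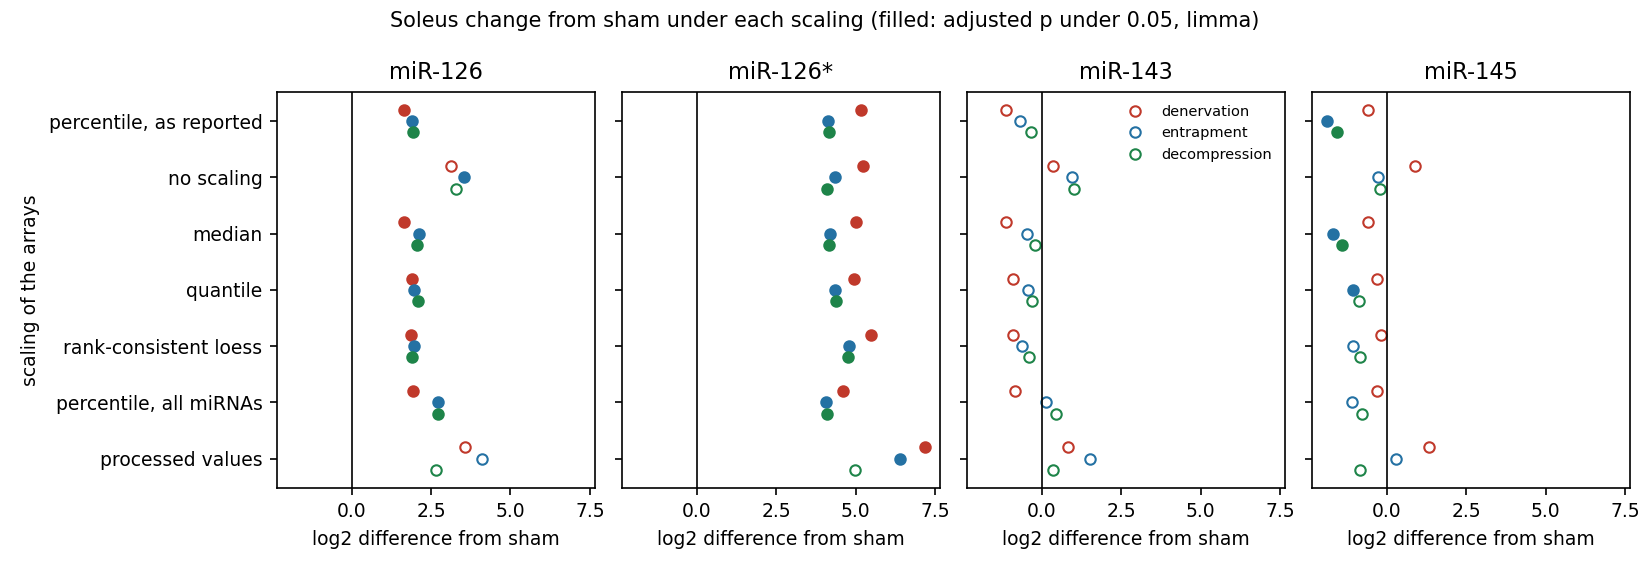
Log2 difference from the sham array in soleus for each miRNA (panels) under 7 scalings of the arrays (rows), with a filled point where limma's adjusted p was under 0.05. All points of miR-126 and miR-126* lie right of 0, while those of miR-143 lie on both sides. Those of miR-145 lie left of 0 except after denervation without scaling and after denervation and entrapment in the processed values.

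The DRGs gave another picture, in which miR-126* and miR-145 were lower in the tube groups and miR-126 and miR-143 were not called. The scaled signal of miR-126 was 564 on the sham array, 548, 502 and 621 after denervation, 529, 584 and 579 after entrapment, and 482, 557 and 619 after decompression. The 10 arrays spanned 1.29-fold and all groups overlapped. The differences from sham were −0.02 (95% interval −0.40 to 0.35), −0.001 (−0.38 to 0.38) and −0.04 (−0.41 to 0.34), with limma adjusted p of 0.967, 0.995 and 0.871.

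miR-126* in the DRGs read 66.0 on the sham array and 67.3, 60.6 and 68.1 after denervation. It was 19.1, 19.9 and 22.5 after entrapment, and 20.4, 20.5 and 21.1 after decompression. The 4 sham and denervation arrays lay between 60.6 and 68.1, and the 6 arrays of the tube groups between 19.1 and 22.5, with no overlap. The level was 3.22-fold lower than sham after entrapment (log2 difference −1.69, SE 0.12, limma adjusted p = 4.03e-05) and 3.19-fold lower after decompression (−1.68, SE 0.12, limma adjusted p = 4.29e-05). After denervation it differed by −0.02 (95% interval −0.29 to 0.26, limma adjusted p = 0.967). The scanner's own error was 10.9% to 29.2% of the miR-126* signal on these arrays, against 7.60% to 7.96% for miR-126.

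miR-143 in the DRGs read 871 on the sham array, 854, 884 and 920 after denervation, 1044, 1083 and 1020 after entrapment, and 796, 968 and 1213 after decompression. The entrapment arrays stood above the sham array and the denervation arrays, while the decompression arrays spread on both sides of them. The differences from sham were 0.02 (95% interval −0.43 to 0.47, limma adjusted p = 0.967), 0.27 (−0.18 to 0.72, limma adjusted p = 0.337) and 0.17 (−0.28 to 0.62, limma adjusted p = 0.526). Those after entrapment and decompression turned below 0 without scaling, and the difference after denervation did so under the loess curve and the narrower percentile.

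For miR-145 in the DRGs, the scaled signal was 48.0 on the sham array and 42.6, 46.9 and 46.9 after denervation. It was 21.1, 22.01 and 20.8 after entrapment, and 19.1, 16.6 and 24.9 after decompression. Sham and denervation lay between 42.6 and 48.0 and the tube groups between 16.6 and 24.9. The level was 2.25-fold lower than sham after entrapment (log2 difference −1.17, SE 0.20, limma adjusted p = 0.00344) and 2.41-fold lower after decompression (−1.27, SE 0.20, limma adjusted p = 0.00257). After denervation the difference was −0.08 (95% interval −0.53 to 0.37, limma adjusted p = 0.89). The scanner's own error was 15.2% to 21.0% of the miR-145 signal on the arrays of the tube groups, against 8.47% to 9.25% on the sham and denervation arrays.

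**Figure D3:**
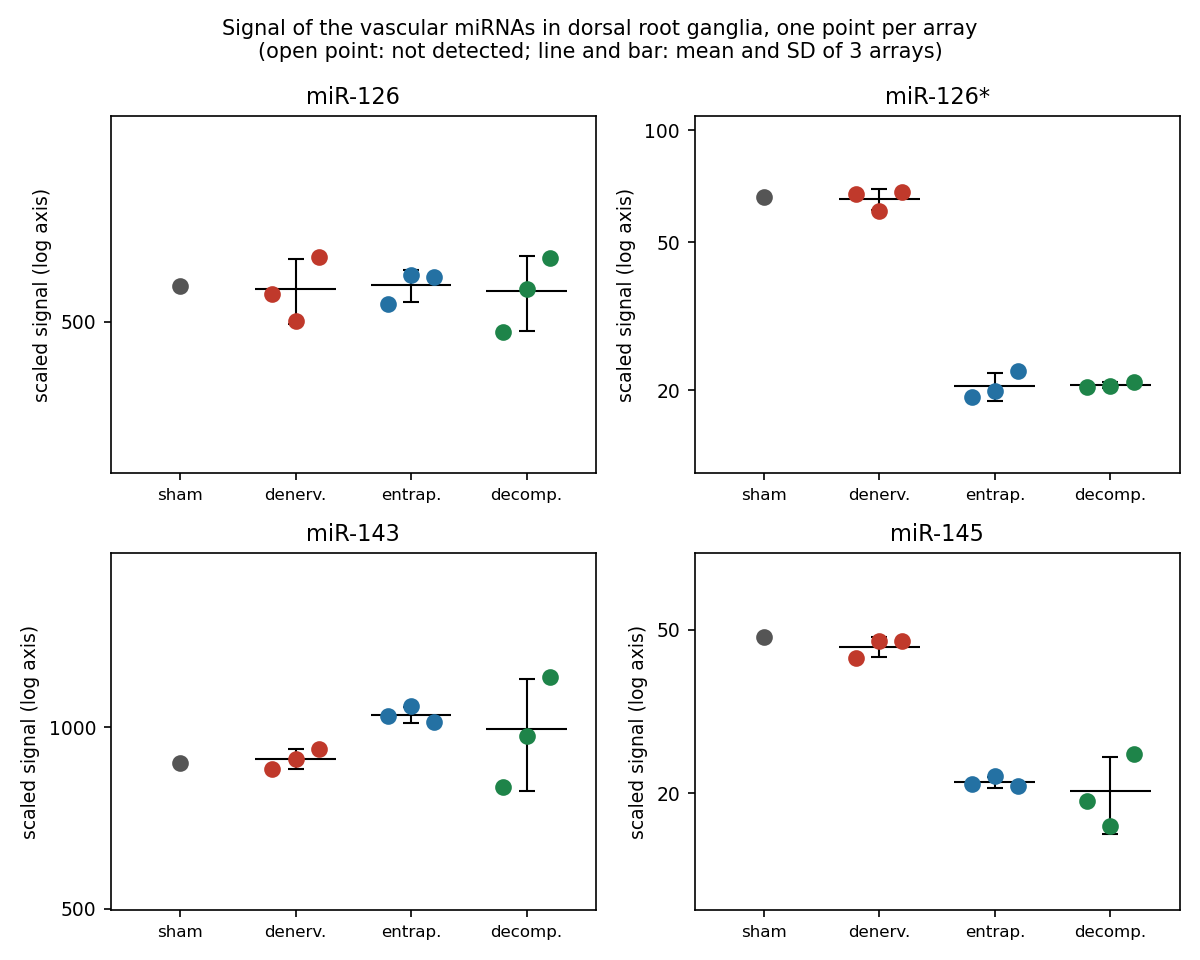
Scaled signal of the 4 miRNAs on each of the 10 DRG arrays, on log axes that differ between panels, with the mean and SD of the 3 arrays of each injury group. The entrapment and decompression arrays lie below the sham and denervation arrays for miR-126* and miR-145, and all groups overlap for miR-126.

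Of the 4 miRNAs, none differed from sham in the DRGs after denervation, where limma called 0.457% of all miRNAs tested, and none of the 4 had an unadjusted p under 0.05. After entrapment 2 were lower, beside 19.6% of all miRNAs tested called and 17.4% called lower, and after decompression 2 were lower, beside 18.3% called and 16.4% lower. The 2-fold rule was met by 0 of the 4 after denervation (1.37% of all), by 2 after entrapment (11%) and by 1 after decompression (13.7%), where miR-145 missed it on 1 array. Both miRNAs were called lower under all 7 scalings, the processed values with their exchanged group names included, from −2.04 to −1.32 for miR-126* and from −1.53 to −0.82 for miR-145 after entrapment, and from −2.02 to −1.33 and from −1.61 to −0.84 after decompression. The share of higher miRNAs among all DRG calls against sham was 11.6% after entrapment and 10% after decompression, and ran from 0% without scaling to 60.7% with quantile normalization in both.

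The split of sham and denervation arrays from entrapment and decompression arrays was not particular to these miRNAs. In the DRGs, 2 of the 4 miRNAs were split this way without overlap, against 34.2% of all miRNAs tested. On the same arrays, 24 of the 45 control features of the array were split in the same manner. In soleus 1 of the 4 was split, against 14.5% of all miRNAs tested, and so were 12 of the 45 control features. The part of these array differences in the results for miR-126* and miR-145 was not tested. In both tissues this split of the groups and whatever sets the control features apart cannot be told apart.

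The injury groups were also compared with each other, which leaves the sham arrays out of the difference. In the DRGs, miR-126* was 3.19-fold lower after entrapment than after denervation (log2 difference −1.67, SE 0.09, limma adjusted p = 2.29e-06) and 3.16-fold lower after decompression (−1.66, SE 0.09, limma adjusted p = 2.24e-06). miR-145 was 2.13-fold lower after entrapment (−1.09, SE 0.14, limma adjusted p = 0.000428) and 2.28-fold lower after decompression (−1.19, SE 0.14, limma adjusted p = 0.000269) than after denervation. miR-126 and miR-143 were not called, with differences of 0.02 and 0.24 after entrapment and of −0.01 and 0.14 after decompression. The 2 calls of 4 in each comparison, both lower, stood beside 41.1% of all miRNAs tested for entrapment (32.9% called lower) and 36.5% for decompression (27.9% called lower).

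In soleus, miR-126* was 2.05-fold lower after entrapment than after denervation (−1.03, SE 0.27, limma adjusted p = 0.0388) and 1.99-fold lower after decompression (−0.99, SE 0.27, limma adjusted p = 0.0408). miR-145 was 2.46-fold lower after entrapment than after denervation (−1.30, SE 0.31, limma adjusted p = 0.0276), and its difference after decompression was −0.97 (95% interval −1.67 to −0.26, limma adjusted p = 0.0746). miR-143 differed by 0.45 after entrapment and by 0.77 after decompression (limma adjusted p = 0.343 and 0.0933), and miR-126 by 0.26 and 0.29. The calls, all lower, numbered 2 of 4 for entrapment, beside 11.6% of all miRNAs tested, and 1 of 4 for decompression, beside 13.9% of all and 12.7% called lower. These counts fell to 0 under most other scalings. With 1 of the 9 injury arrays left out at a time, the first count fell for 7 of the 9 arrays. It was 0 without denervation replicate 2, any of the 3 entrapment replicates or decompression replicate 1. The second count was 1 without entrapment replicate 1, 2 without denervation replicate 3 and 0 without any other array. The counts were 1 and 0 when denervation replicates 1 and 2, whose files share a layout with the sham file, were left out together, an alternative chosen after seeing the data.

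Decompression did not differ from entrapment for any of the 4 miRNAs in limma's test, in either tissue, where 0% of all miRNAs were called and none of the 4 had an unadjusted p under 0.05. In soleus the differences were 0.03 for miR-126 (95% interval −0.59 to 0.65), 0.04 for miR-126* (−0.58 to 0.66), 0.33 for miR-143 (−0.29 to 0.94) and 0.33 for miR-145 (−0.37 to 1.03). In the DRGs they were −0.04 (−0.30 to 0.23), 0.01 (−0.18 to 0.21), −0.10 (−0.42 to 0.22) and −0.09 (−0.41 to 0.22) in the same order. A p that misses the threshold does not show that the 2 groups are alike, and the intervals give the sizes that these arrays leave room for.

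**Figure D4:**
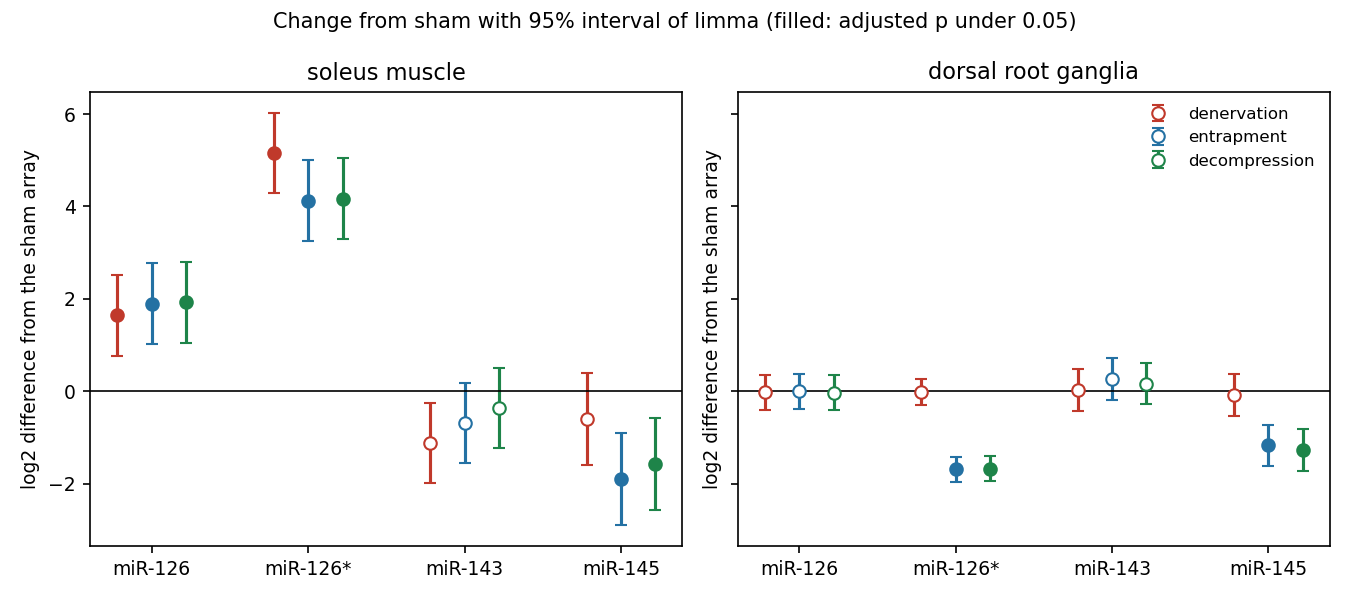
Log2 difference of each injury group from the sham array of its tissue, with limma's 95% interval and a filled point where the adjusted p was under 0.05. miR-126 and miR-126* lie above 0 in soleus, and in the DRGs miR-126* and miR-145 lie below 0 after entrapment and decompression.

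Ratios of 2 signals from the same array do not change under a scaling that divides the whole array by a constant. Quantile normalization and the loess curve act by intensity and can change such ratios. The ratios below are of raw signals and were not formed under these 2 scalings. Only the change of the ratios between arrays is described here, since the 2 probes need not bind equally well. The ratio of miR-126 to miR-126* was 8.14 to 9.11 on the sham and denervation arrays of the DRGs and 23.7 to 29.4 on those of the tube groups. In soleus it was 10.2 to 12.8 after denervation and 26.2 to 30.2 on the 6 arrays of the tube groups, and it could not be formed on the sham array. The ratio of the 2 strands thus differed between these sets of arrays by 3.18-fold in the DRGs and 2.44-fold in soleus. Along the same groups, 24 of the 45 control features were split in the DRGs and 12 of the 45 in soleus. The part of such array differences in the ratios was not tested.

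The ratio of miR-143 to miR-145 followed the same split of arrays. It was 15.0 to 23.8 on the 4 sham and denervation arrays of soleus and 52.3 to 60.3 on the 6 others, and 18.2 to 20.03 against 41.7 to 58.3 in the DRGs. The 3.05-fold and 2.57-fold differences between the sets ran in the same direction in both tissues. The ratio of miR-126 to miR-143, which sets the endothelial beside the smooth muscle miRNA, was 0.14 on the soleus sham array and 0.647 to 1.06 on the 9 injury arrays. In the DRGs this ratio stayed between 0.507 and 0.675 on all 10 arrays.

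**Figure D5:**
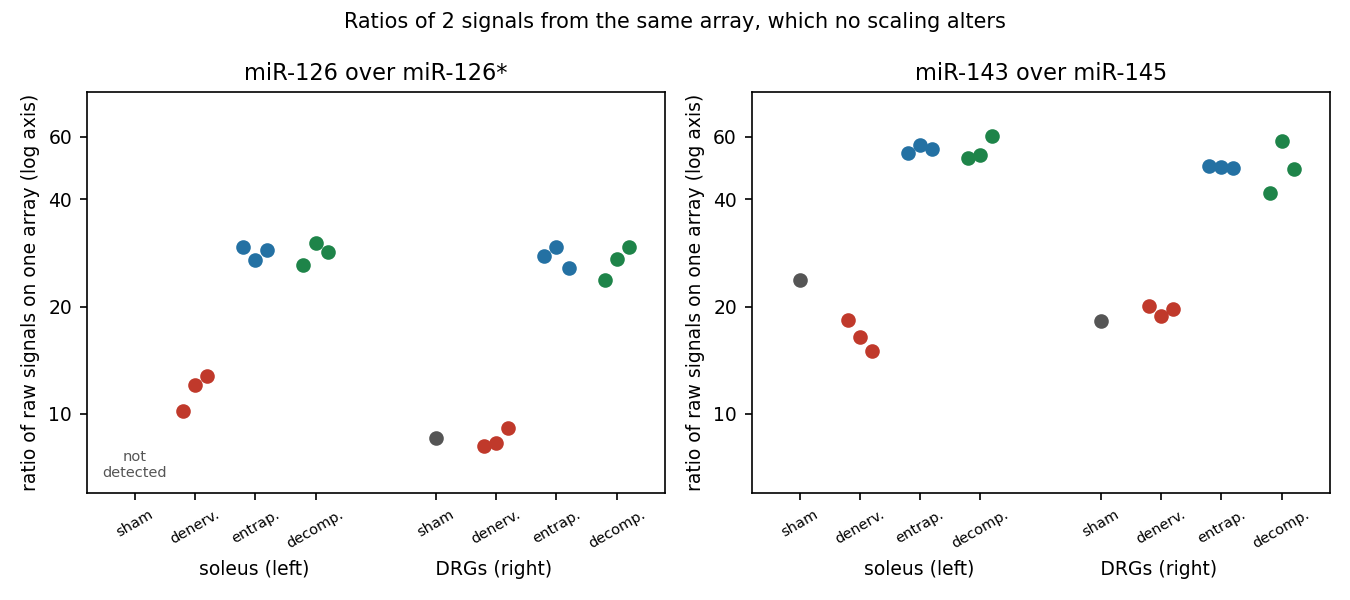
Ratio of the raw signals of miR-126 over miR-126* (left panel) and of miR-143 over miR-145 (right panel) on each array, on log axes, with the soleus arrays on the left of each panel and the DRG arrays on the right. Within each panel and tissue, all sham and denervation arrays with a ratio lie below all entrapment and decompression arrays; the left panel has no value for the soleus sham array, where miR-126* was not detected.

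The change from sham was compared between the tissues with an interaction contrast over the 162 miRNAs tested in both. The Methods take both tissues from 3 rats per group, so that soleus and DRG arrays may share animals, and the tests between tissues treat all arrays as independent. The change of miR-126 was larger in soleus than in the DRGs by 1.67 (SE 0.40, limma adjusted p = 0.00645) after denervation, by 1.90 (SE 0.40, limma adjusted p = 0.00327) after entrapment and by 1.97 (SE 0.40, limma adjusted p = 0.00185) after decompression. All 3 of these calls were lost in the processed values, and that after denervation also without scaling. For miR-126* the tissue difference was 5.17, 5.81 and 5.84 in the same order (SE 0.38 each, limma adjusted p = 1.32e-07, 2.6e-08 and 2.43e-08), sizes that include a sham value below detection. The change of miR-143 after denervation was lower in soleus than in the DRGs (difference −1.15, SE 0.41, limma adjusted p = 0.047), a call that was lost without scaling and in the processed values, where its sign turned. miR-145 was not called, with differences of −0.53, −0.73 and −0.30. The calls were 3 of 4 after denervation, 2 of 4 after entrapment and 2 of 4 after decompression, beside 27.2%, 26.5% and 29.6% of all miRNAs tested.

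Levels in the tissues themselves were set on 1 scale through the 102 miRNAs detected on all 20 arrays. On it, miR-126 had a scaled signal of 323 to 1418 in soleus (median 1086) and of 581 to 726 in the DRGs (median 642). miR-143 ran from 885 to 2309 (median 1395) against 907 to 1422 (median 1065), and miR-145 from 21.5 to 97.1 (median 36.9) against 19.0 to 54.3 (median 27.8). All 4 miRNAs overlapped between the tissues. The mean over groups was 1.28-fold higher in soleus for miR-126 (log2 difference 0.35, SE 0.11, limma adjusted p = 0.00771), 1.43-fold higher for miR-143 (0.52, SE 0.11, limma adjusted p = 0.000667) and 1.32-fold higher for miR-145 (0.40, SE 0.14, limma adjusted p = 0.0169). miR-126* was lower in soleus (difference −0.78, SE 0.11, limma adjusted p = 7.38e-06), but without both sham arrays, an alternative chosen after seeing the data, it was higher by 0.59 (limma adjusted p = 6.72e-05). The 4 calls of 4 stood beside 83% of 230 miRNAs tested, so being called was the rule in this comparison.

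Of the other miRNAs known from endothelium and vessel growth, 22 were measured and 16 were tested in soleus. After denervation 1 was higher and 2 were lower than sham, with the same counts after entrapment, and after decompression 1 was higher and 3 were lower. These 3, 3 and 4 calls of 16 stood beside 26.6%, 29.5% and 31.8% of all miRNAs tested. The 1 that rose was miR-322, a miRNA known from muscle and vessels as the rodent form of miR-424 (log2 differences 2.96, 3.23 and 3.37, limma adjusted p = 0.000828, 0.000365 and 0.000293). miR-92a of the miR-17-92 cluster fell by 1.56, 1.88 and 1.83 on the log2 scale, and miR-130a, known from endothelial growth, fell by 1.73, 1.28 and 1.52. The list's median difference was −0.14, 0.16 and 0.16 in the 3 comparisons, beside −0.07, −0.37 and −0.25 for all miRNAs tested.

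In the DRGs, 19 of these 22 were tested. None differed from sham after denervation in limma's test, 2 were lower after entrapment and 1 after decompression, beside 0.457%, 19.6% and 18.3% of all miRNAs called. miR-222, known as a brake on vessel growth, fell by 1.92 after entrapment and fell by 1.62 after decompression (limma adjusted p = 0.00108 and 0.00257), and miR-19a fell by 0.91 after entrapment. Their median differences were 0.25, 0.24 and 0.19, beside −0.02, −0.11 and −0.13 for all miRNAs tested.

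Among the other miRNAs known from vascular smooth muscle, 8 were measured and 7 were tested in each tissue. In soleus 2 of the 7 were higher and 0 lower than sham in each comparison, where 11.6%, 9.83% and 9.83% of all miRNAs tested were called higher. miR-21, which is known to rise in injured vessels and many other tissues, was higher by 3.28, 3.59 and 3.23 (limma adjusted p = 0.000828, 0.000365 and 0.000614). The other call was miR-15b after denervation (1.55) and miR-195 after entrapment (1.92) and decompression (1.73). In the DRGs miR-21 rose after denervation by 1.29 (limma adjusted p = 0.00511), the 1 call in that comparison, and none of the 7 was called after entrapment or decompression. The medians of the list were 0.70, 0.22 and 0.21 in soleus, beside −0.07, −0.37 and −0.25 for all miRNAs, and 0.37, 0.046 and 0.11 in the DRGs, beside −0.02, −0.11 and −0.13.

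Markers of other cells were read on the same arrays, because the RNA came from whole tissue, in which fewer cells of a type and less RNA per cell cannot be told apart. The summed signal of 2 red blood cell miRNAs in soleus was 1179 on the sham array, 219 to 2258 after denervation, 469 to 810 after entrapment and 196 to 1199 after decompression. That of 4 leukocyte miRNAs was 681 on the sham array, 471 to 757 after denervation, 340 to 448 after entrapment and 311 to 439 after decompression. That of 6 fibroblast and mesenchyme miRNAs was 10120 on the sham array, 6678 to 8311 after denervation, 9994 to 14571 after entrapment and 13103 to 15787 after decompression. That of 5 skeletal muscle miRNAs was 196740 on the sham array, 96040 to 342043 after denervation, 56279 to 114626 after entrapment and 99281 to 102338 after decompression, so that the tube groups lay below the sham array and overlapped denervation. The sum did not stand for each of these 5 miRNAs. Their median log2 difference from sham was 0.08 after denervation, 0.61 after entrapment and 0.82 after decompression. After entrapment and after decompression, 1 of the 5 was called lower and 0 were called higher. The leukocyte sum was lower in the tube groups than on the sham and denervation arrays, as miR-145 was, and the mesenchymal sum was lowest after denervation, as the mean of miR-143 was. The median log2 difference of the 6 mesenchymal miRNAs from sham was −0.68 after denervation. The 1 of them called there, miR-199a-3p, went the other way and was higher by 2.20. Each miRNA in these soleus sums was detected on at least 1 array of every group, except the skeletal muscle miRNA miR-499, which was not detected on the sham array. In the DRGs, the leukocyte sum was 914 on the sham array, 691 to 1127 after denervation, 491 to 659 after entrapment and 741 to 979 after decompression. The fibroblast and mesenchyme sum there was 10739 on the sham array, 12134 to 12505 after denervation, 14242 to 16375 after entrapment and 14818 to 16740 after decompression. It was thus higher in the tube groups without overlap, on the arrays where miR-145 and miR-126* were lower. This sum did not stand for each of the 6 miRNAs either. Their median log2 difference from sham was 0.17 after denervation, 0.21 after entrapment and 0.19 after decompression. Those called against sham, all higher, were miR-29a and miR-29b in both tube groups and miR-29c after decompression. The red blood cell sum was 3049 on the sham array, 697 to 1573 after denervation, 887 to 2917 after entrapment and 1434 to 4313 after decompression. The part of these cells in the results was not tested.

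Likeness of pattern was measured as Pearson's correlation of log2 levels over the 10 arrays of a tissue, which share their scaling and their groups, so that r mixes shifts between groups with the spread inside them. In soleus, miR-126 was most like miR-322 (r = 0.986), miR-192 (0.918) and miR-26b (0.867), and miR-126* most like miR-26b (0.954), miR-30c (0.884) and miR-322 (0.881). The 2 strands had r = 0.838 with each other. miR-143 was most like let-7b (0.806), miR-29a (0.753) and miR-296* (0.746), and miR-145 most like miR-30c-1* (0.897), miR-664 (0.881) and miR-338* (0.88). miR-143 and miR-145 had r = 0.0772 with each other over the 10 arrays, although inside the 3 injury groups their ratio varied little (SD of the log2 ratio 0.038 to 0.14). The median r with all miRNAs was −0.21 for miR-126, −0.07 for miR-126*, −0.02 for miR-143 and 0.26 for miR-145.

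In the DRGs, miR-126* was most like miR-190 (r = 0.997), miR-30c (0.993) and miR-9 (0.991), and miR-145 most like miR-125a-5p (0.976), miR-664 (0.972) and miR-190 (0.968). These 2 miRNAs, which come from different hairpins, had r = 0.965 with each other, while miR-126* had r = 0.0504 with its partner strand miR-126 and miR-145 had r = −0.4 with miR-143. miR-126 was most like miR-98 (0.7), miR-9* (0.699) and miR-152 (0.681) over its narrow range, and miR-143 most like miR-22 (0.886), miR-10b (0.848) and miR-214 (0.776). Here the median r with all miRNAs was 0.10 for miR-126, 0.40 for miR-126*, −0.12 for miR-143 and 0.35 for miR-145.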

How the data were processed

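The authors deposited, for each of the 20 arrays, the scanner output of Agilent Feature Extraction 9.5.3, per the labels. Its total gene signal is an intensity on a linear scale, summed over the probes of a miRNA after background subtraction, with an error and a detection call, and not normalized between arrays. A second table that the authors deposited holds their processed signal of each miRNA on each array, which for the 4 miRNAs equals the scanner intensity over 1 constant per array. The Methods name a rank-consistency LOWESS and a 2-fold change from sham. They describe 3 rats per group, and the files used here hold 1 sham array per tissue. The labels describe labelling by amplification and the Methods by ligation of pCp-Cy3, and the genome build is not given in the sources used here.

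Scaling brought the 75th percentile of every array to a common value, taken over the 108 miRNAs detected on all soleus arrays and over all 348 in the DRGs. Signals below a floor, the median over arrays of the lowest detected signal (2.71 in soleus, 2.31 in the DRGs), were set to it before log2 was taken. A miRNA entered the test if 3 or more of a tissue's 10 arrays detected it. limma 3.58.1 in R 4.3.3 fitted the group alone, and its two-sided p-values were adjusted after Benjamini and Hochberg with a threshold of 0.05. The fit was tested on simulated data. Python 3.11.15 with matplotlib 3.10.9 made the figures. The number of arrays limits the precision.

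The members and lists were chosen with earlier results of these data known. The text names the 4 miRNAs, at most 3 called list members with the largest differences per list and comparison, and the 3 miRNAs most correlated with each of the 4. Alternatives covered the scaling, the filter, a pseudocount of 5, an intensity trend, the processed values, the arrays fitted, the replicate block and each array left out. Control features and the 2 of 350 miRNAs whose names differ between files were not tested.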

Additional observations from a re-analysis of the deposited data

Results flagged for a closer look

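The change from sham differed between soleus and DRGs by limma's interaction contrast in 7 instances, each given as the soleus change minus the DRG change on the log2 scale. For miR-126 the difference was 1.67 after denervation, 1.90 after entrapment and 1.97 after decompression, with 9 of 9 injury arrays above sham in soleus and 4 of 9 in the DRGs. For miR-126* it was 5.17 after denervation, 5.81 after entrapment and 5.84 after decompression, with 9 of 9 injury arrays above sham in soleus and 2 of 9 in the DRGs. For miR-143 it was −1.15 after denervation. All of these rest on 1 sham array per tissue, and the miR-126* values on a soleus sham signal below detection.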

How the results depend on the processing

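Single sham arrays, 3 arrays per injury group and a soleus sham array on which miR-126* was below detection limit all results. Of 428 recomputed counts, 365 stayed within 1.5 times the reported one, and of 1394 recomputed differences of single miRNAs, 1197 kept their direction and their side of the threshold, 95 lost the call, 9 gained one and 93 changed sign. The causes of the changes below were not tested. The direction of miR-126 and miR-126* against sham in soleus, and of miR-126* and miR-145 against sham after entrapment and decompression in the DRGs, was the same in every alternative that tested them. The share of higher miRNAs among all calls against denervation moved from 0% to as much as 55.9% for entrapment and from 8.33% to 57.6% for decompression in soleus, and from 20% to 54.9% and from 23.8% to 54.8% in the DRGs. Between tissue levels it moved from 23% to 47.8%, and for the tissue difference in change from between 34.1% and 37.5% to as much as 100%. Quantile normalization called 24 miRNAs in place of 1 for denervation against sham in the DRGs.

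In soleus, the 2 calls of entrapment against denervation became 0 without scaling, with median scaling, quantile normalization, the loess curve, no filter, the processed values and only the groups compared, and 1 with the percentile over all miRNAs, the filter of detection on all arrays, the intensity trend and denervation replicates 1 and 2 left out together, the last an alternative chosen after seeing the data. The 1 call of decompression against denervation became 0 in all of these except the percentile over all miRNAs. The 2 calls of denervation against sham became 1 without scaling, with detection on all arrays (by fold as well, since miR-126* leaves the test), in the processed values and with only the groups compared. The 3 calls after decompression became 1 without scaling and 0 in the processed values (1 by fold), and the 3 after entrapment 1 in the processed values. In the DRGs, the 2 calls of decompression against sham became 1 with only the groups compared, the 2 by fold after entrapment became 1 with quantile normalization, the loess curve, the processed values and a pseudocount of 5, and the 1 by fold after decompression became 2 without scaling, with the narrower percentile, in the processed values and at 1.5-fold. In the processed values both of these changes go with the exchange of the 2 groups' columns in the DRGs, so that they are no effect of processing alone. The 4 calls between tissue levels became 1 without scaling and 0 in the processed values. For the tissue difference in change, the 3 calls after denervation became 1 without scaling and in the processed values, and the 2 after entrapment and after decompression became 1 each in the processed values.

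Signs that changed are given as log2 differences. Without scaling, soleus against sham gave miR-143 0.35, 0.95 and 1.00 after denervation, entrapment and decompression and miR-145 0.88 after denervation, and decompression against entrapment gave miR-126 −0.24 and miR-126* −0.23. DRGs against sham gave miR-126 0.065, miR-126* 0.073 and miR-145 0.011 after denervation, and miR-143 −0.086 and −0.18 after entrapment and decompression. Against denervation, DRG miR-126 was −0.42 and miR-143 −0.20 after entrapment, and miR-143 −0.29 after decompression. The tissue difference in change was 0.24, 1.03 and 1.17 for miR-143 and 0.87, 1.26 and 1.39 for miR-145. In the processed values, where 1 soleus decompression array has a far larger constant and the DRG columns of entrapment and decompression hold each other's arrays, soleus against sham gave miR-143 0.81, 1.51 and 0.36 and miR-145 1.34 and 0.29 after denervation and entrapment. Decompression against denervation gave miR-126 −0.93 and miR-143 −0.45, and decompression against entrapment gave −1.44, −1.43, −1.14 and −1.14 for miR-126, miR-126*, miR-143 and miR-145. DRGs against sham gave miR-126 0.085, miR-126* 0.093 and miR-145 0.031 after denervation, and miR-126 0.011 and 0.056 after entrapment and decompression. Entrapment against denervation gave miR-126 −0.074, and decompression against entrapment 0.045, −0.0037, 0.11 and 0.11, signs that the exchanged columns turn by construction. The tissue difference in change was 0.68, 1.29 and 0.039 for miR-143 and 1.30, 1.51 and 0.27 for miR-145.

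Median scaling gave soleus decompression against entrapment −0.041 for miR-126 and −0.032 for miR-126*, and in the DRGs miR-126 0.027 and miR-126* 0.035 for denervation against sham, and miR-126 0.0091, −0.040 and 0.022 for decompression against sham, entrapment against denervation and decompression against entrapment. Quantile normalization gave DRG miR-126* 0.042 and miR-145 0.014 for denervation against sham, miR-126 0.051, 0.065 and 0.14 for entrapment against sham, decompression against sham and decompression against denervation, and miR-126 0.014 and miR-145 0.0065 for decompression against entrapment. The loess curve gave soleus decompression against entrapment −0.059 for miR-126 and −0.032 for miR-126*, and in the DRGs miR-126* 0.013 and miR-143 −0.094 for denervation against sham and miR-126* −0.0064 for decompression against entrapment. The percentile over the other set of miRNAs gave soleus miR-143 0.12 and 0.43 after entrapment and decompression, and in the DRGs miR-143 −0.023 for denervation against sham and miR-126* −0.016 for decompression against entrapment. The tissue level of miR-126* was 0.46 with quantile normalization, 0.036 with the percentile over all miRNAs and 0.59 over the injury groups only.

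With 1 array left out at a time, the calls were 0 to 2 for soleus entrapment against denervation, 0 to 2 for soleus decompression against denervation, and 1 to 2 by fold for DRG decompression against sham. Ranges that crossed 0 were, for soleus decompression against entrapment, −0.17 to 0.16 for miR-126 and −0.19 to 0.17 for miR-126*. In the DRGs they were −0.11 to 0.048, −0.047 to 0.037 and −0.0034 to 0.050 for miR-126, miR-126* and miR-143 in denervation against sham. They were −0.026 to 0.044 and −0.12 to 0.059 for miR-126 in entrapment and decompression against sham, −0.049 to 0.10 and −0.10 to 0.083 for miR-126 in entrapment and decompression against denervation, and −0.012 to 0.29 for miR-143 in the latter. For decompression against entrapment they were −0.12 to 0.060, −0.034 to 0.083, −0.26 to 0.047 and −0.26 to 0.037 in the order of the 4 miRNAs.

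Replicate numbers showed no steady pairing of the samples, which so few arrays cannot exclude. Deviations of same-numbered arrays from their group means correlated between −0.473 and 0.205 in soleus and between −0.262 and 0.244 across the tissues. In the DRGs they correlated between −0.122 and 0.481, where number 1 alone had only positive values (0.262 to 0.438). With the replicate number as a block, the calls of soleus entrapment against denervation and of decompression against denervation were 0 and 0, and the other counts of calls stayed within 1.5 times.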
